A study of Homo sapiens with 9 samples.

Results

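The core histones H2A, H2B, H3 and H4 and the linker histone H1 are encoded in people by many near-identical genes, most of them packed into clusters on chromosomes 6 and 1. Members were the genes whose symbol has the pattern H1-n, H2ACn, H2BCn, H3Cn or H4Cn, where n is a number, with the transcript cluster of highest mean signal standing for a gene. The rule took 64 of 17687 named genes on the array: 9 H1, 14 H2A, 17 H2B, 9 H3 and 15 H4 genes. Each had 1 cluster. RefSeq lists 73 genes with such a symbol, and the others are not analysed here.

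Transcripts were measured on 9 Clariom S arrays of ACC-MESO-1, a human cell line established from a mesothelioma, which is a cancer of the membrane around the lungs. The cells had been infected with shLSD1 #1 (replicates 4 to 6), shLSD1 #2 (replicates 7 to 9) or a control shRNA (replicates 1 to 3), with 3 arrays per group. LSD1 is a histone demethylase, and the series asks what its suppression does to mesothelioma cells of mesenchymal character. All groups share the line, a single one, and the delivery of a hairpin. How long after infection RNA was taken, and whether replicates were separate cultures, the sources used here do not give, so p-values measure the spread between these arrays alone, which may be technical. LSD1's own message is not reported here, and the extent of its knockdown was therefore not checked.

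Most members are replication-dependent. Their genes lack introns, their messages end in a stem-loop in place of a poly(A) tail, and that stem-loop is bound by SLBP. Transcription is driven at the start of S phase by NPAT, a substrate of cyclin E and CDK2, so that histone protein is made while DNA is copied. In resting or differentiated cells a few of the genes also give polyadenylated messages. H1-6, H1-7, H1-8, H2AC1 and H2BC1 belong to the germ line. Several paralogues differ by few bases, so a probe of one can read another. Probe sequences were not used here, and how far signals are shared was not tested.

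The promoters below are those of the members called with shLSD1 #1 other than H2AC25 and H2AC1, and of H4C14, which passed with neither hairpin. They are as RefSeq gives them on GRCh38.p14. Each window has 300 bases, most of them upstream of the annotated start and the rest past it, written 5′ to 3′ on the strand of the gene. In the first 5, capitals mark TATAAA (the TATA box), CCAAT (the CCAAT box) and ATTTGCAT (the octamer, known as the binding site of POU2F1), on either strand.
H2BC26, chr1:228457853-228458152, plus strand: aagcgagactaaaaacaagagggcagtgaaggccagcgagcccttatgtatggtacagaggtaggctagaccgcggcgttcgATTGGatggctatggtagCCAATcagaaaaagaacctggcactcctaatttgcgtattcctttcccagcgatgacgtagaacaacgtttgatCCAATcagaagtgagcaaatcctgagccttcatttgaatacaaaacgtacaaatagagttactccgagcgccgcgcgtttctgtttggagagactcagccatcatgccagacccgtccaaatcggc
H2AC20, chr1:149886668-149886967, plus strand: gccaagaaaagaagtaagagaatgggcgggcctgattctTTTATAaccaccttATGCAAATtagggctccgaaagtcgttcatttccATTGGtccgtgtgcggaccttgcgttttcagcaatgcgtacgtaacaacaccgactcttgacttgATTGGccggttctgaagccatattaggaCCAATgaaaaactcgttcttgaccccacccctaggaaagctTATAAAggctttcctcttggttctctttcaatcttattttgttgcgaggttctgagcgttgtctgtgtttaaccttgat
H2AC4, chr6:26033569-26033868, minus strand: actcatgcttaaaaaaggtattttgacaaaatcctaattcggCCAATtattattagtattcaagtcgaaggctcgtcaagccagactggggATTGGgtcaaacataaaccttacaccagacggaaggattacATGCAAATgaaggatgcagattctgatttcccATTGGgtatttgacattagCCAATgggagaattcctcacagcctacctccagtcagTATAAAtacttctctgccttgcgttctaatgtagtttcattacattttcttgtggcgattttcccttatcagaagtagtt
H3C1, chr6:26020201-26020500, plus strand: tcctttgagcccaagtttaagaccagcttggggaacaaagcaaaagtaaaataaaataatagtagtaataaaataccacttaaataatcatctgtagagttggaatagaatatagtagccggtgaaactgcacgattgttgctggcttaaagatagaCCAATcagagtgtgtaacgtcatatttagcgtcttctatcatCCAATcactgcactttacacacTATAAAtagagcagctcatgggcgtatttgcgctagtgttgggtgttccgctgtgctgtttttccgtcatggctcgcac
H4C14, chr1:149832407-149832706, plus strand: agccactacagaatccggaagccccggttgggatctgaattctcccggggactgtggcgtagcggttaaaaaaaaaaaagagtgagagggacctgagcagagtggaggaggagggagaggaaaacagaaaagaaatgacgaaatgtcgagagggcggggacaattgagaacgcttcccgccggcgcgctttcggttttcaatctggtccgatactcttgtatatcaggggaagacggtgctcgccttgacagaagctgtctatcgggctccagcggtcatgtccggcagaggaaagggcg
The CCAAT box stood 3 times in the H2BC26 window, 3 times in that of H2AC20, 4 times in that of H2AC4, 2 times in that of H3C1 and 0 times in that of H4C14. The octamer was in the windows of H2AC20 and H2AC4. These letters describe the windows and say nothing of what was bound.

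Over the family, 60 of 64 members had such a window. TATAAA occurred in 40 of the 60, or 66.7%, against 11.95% of 27305 windows in the table. CCAAT occurred in 49 of 60 (81.7%), against 35.7% of all windows: in every H2A, H2B and H3 window, in 8 of 9 H1 windows and in 3 of 13 H4 windows. The octamer was in 14 of 17 H2B and 8 of 13 H2A windows and in 0 windows of H1, H3 or H4. In 8 head-to-head pairs of an H2A and an H2B gene the windows share 253 to 286 bases, so an octamer there counts for both genes. The motif was in 22 of 60 member windows, or 36.7%, against 1.80% of all windows. AAACACA, the H1 box, was in 7 of 9 H1 windows and 1 other member window, against 5.76% of all windows. Motifs were searched on both strands, and none of the 4 contains another.

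Signals are log2 intensities on a relative scale, so each gene is compared with itself across arrays. A gene was taken as measured on an array where it exceeded the 95th percentile of 612 negative control probe sets there, which lay between 6.93 and 7.54. Of the members, 47 were above it on all 9 arrays, 7 on some and 10 on none. The 10 were the 5 germ-line members, H1-1, H1-10, H4C6, H4C7 and H4C16. All 9 H3 members were above it on every array.

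With shLSD1 #1, 6 of 64 members passed the test, against 15.8% of all 21448 transcript clusters. H2BC26, H2AC25, H2AC20, H2AC4 and H3C1 fell, as did 7.94% of all clusters, and H2AC1 rose, as did 7.85%. With shLSD1 #2, 0 members passed, against 13.2% of all clusters: 0 rose, against 6.56%, and 0 fell, against 6.63%. Accordingly 0 members passed in the same direction with both hairpins, against 10.4%. Of the members, 7.8% fell with shLSD1 #1, near the background, and 1.6% rose, below it. In an alternative fit with a trended robust prior, 14 members passed with shLSD1 #1, against 20.9% of all clusters. For shLSD1 #1 the order of the shares thus depended on the setting, and it is not read as a result about the members. With shLSD1 #2 the share of members was below the background. The test was limma's moderated test in one fit of the 3 groups, with Benjamini-Hochberg adjustment over all clusters and a threshold of 0.05. At an unadjusted p under 0.05, 17 members passed with shLSD1 #1 (29.1% of all clusters) and 8 with shLSD1 #2 (26.0%). The comparisons share their 3 control arrays. In these bulk samples, fewer cells making histone message and less message per cell cannot be told apart.

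**Figure D1:**
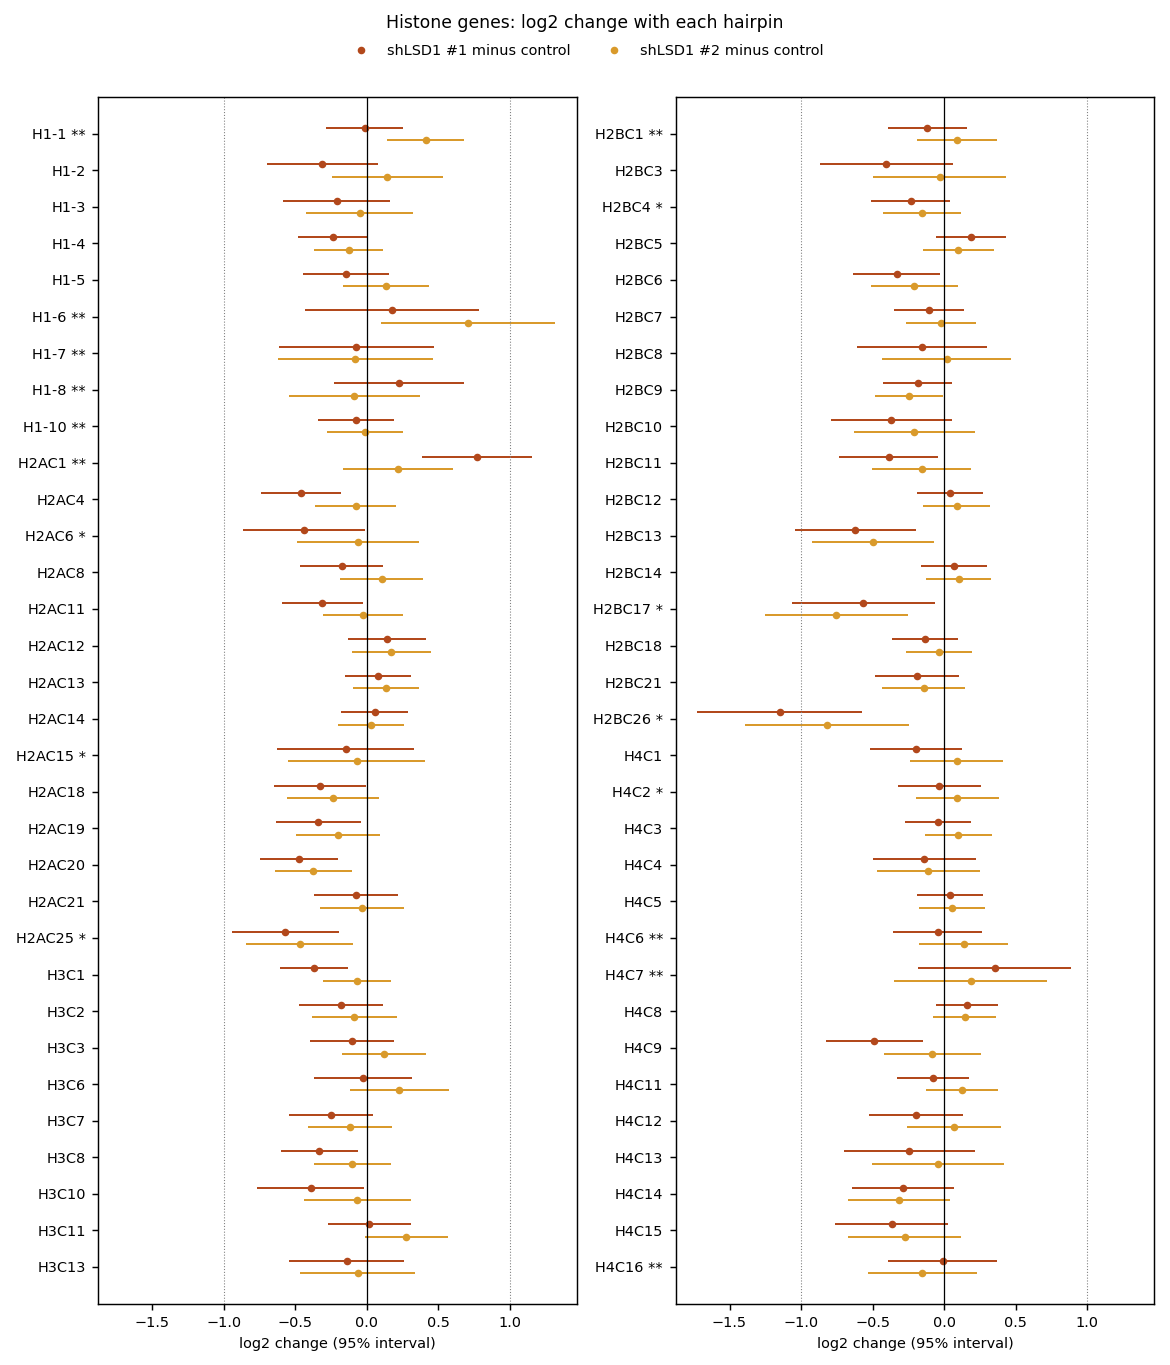
Log2 change of each of the 64 histone genes (points) with its 95% interval (lines) for shLSD1 #1 minus control and shLSD1 #2 minus control, 3 arrays per group, with dotted lines at 1 log2 unit either side of 0. One asterisk marks genes above the negative controls on only some arrays and 2 asterisks those above them on none; H2BC26 lies farthest left, and most other intervals stay inside the dotted lines.

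Changes were small for most members. The 95% interval of the change lay within 1 log2 unit of 0 for 60 of 64 members with shLSD1 #1 (83.7% of all clusters) and 61 with shLSD1 #2 (85.4%). It lay within 0.5 units for 29 members with shLSD1 #1 (26.6% of all clusters) and 41 with shLSD1 #2 (28.7%). Of the members, 10 had a mean signal over 15, as did 318 of 21448 clusters. Whether such bright signals understate a change was not tested. The median change of the members was -0.16 with shLSD1 #1 and -0.04 with shLSD1 #2, beside 0.03 and 0.02 over all clusters. Below 0 were 51 and 38 of 64 members, against 10023 and 10105 of 21448 clusters. Among the 47 measured on every array, the median was -0.19 with shLSD1 #1 and -0.04 with shLSD1 #2, with 38 and 28 below 0. Over all 8566 clusters measured on every array, the medians were -0.0065 and 0.0094, with 4350 and 4191 below 0. Family by family, the genes measured on every array had medians between -0.24 (H2A) and -0.18 (H3 and H2B) with shLSD1 #1, and between -0.07 (H3) and 0.06 (H4) with shLSD1 #2.

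H2BC26, an H2B gene outside the main clusters, had the largest called fall. Its log2 signal was 6.01, 6.83 and 6.05 on the shLSD1 #1 arrays and 6.82, 6.13 and 6.92 on the shLSD1 #2 arrays, against 7.43, 7.34 and 7.55 on the control arrays. Every hairpin array lay below every control array, and every hairpin array lay below its negative control percentile, which only 2 control arrays exceeded. The change was -1.15 ± 0.26 (SE) with shLSD1 #1 (adjusted p = 0.0141) and -0.82 ± 0.26 with shLSD1 #2 (adjusted p = 0.0667). Against the percentiles of the hairpin arrays, the control mean was 1.21-fold higher for either hairpin. Those percentiles were 6.93, 7.27 and 7.32 for shLSD1 #1 and 7.35, 7.18 and 6.98 for shLSD1 #2, against 7.22, 7.54 and 7.45 for control. Control was itself near its percentiles, so no minimum fold is given.

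Its divergent neighbour H2AC25, whose start lies 230 bases away on the other strand, had 6.67, 7.15 and 7.09 on the shLSD1 #1 arrays and 7.09, 6.88 and 7.24 on the shLSD1 #2 arrays, against 7.64, 7.65 and 7.32 on the control arrays. The groups did not overlap with either hairpin. The gene fell with shLSD1 #1 (log2 change -0.57 ± 0.17, adjusted p = 0.0459), and the shLSD1 #2 change was -0.47 ± 0.17 (adjusted p = 0.102). Its control mean was 1.29-fold above the percentiles of the shLSD1 #1 arrays, which, as for H2BC26, is no minimum fold. It was above the negative control percentile on 1 of 3 shLSD1 #2 arrays and on 2 of 3 control arrays, but on none with shLSD1 #1.

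H2AC20 encodes an H2A of the chromosome 1 cluster. It read 13.20, 13.22 and 13.22 on the shLSD1 #1 arrays and 13.29, 13.17 and 13.48 on the shLSD1 #2 arrays, against 13.77, 13.74 and 13.55 on the control arrays. All hairpin arrays were below all control arrays. It fell with shLSD1 #1 by 0.47 ± 0.12 log2 units, or 1.39-fold (adjusted p = 0.0258), and the change with shLSD1 #2 was -0.38 ± 0.12 (adjusted p = 0.0737).

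H2AC4, an H2A gene of chromosome 6, read 11.51, 11.56 and 11.62 on the shLSD1 #1 arrays and 12.08, 11.70 and 12.06 on the shLSD1 #2 arrays, against 12.01, 12.01 and 12.05 on the control arrays. The shLSD1 #1 arrays lay wholly below control, while the shLSD1 #2 arrays overlapped it and differed from each other. The change was -0.46 ± 0.13 with shLSD1 #1 (adjusted p = 0.0349) and -0.08 ± 0.13 with shLSD1 #2 (adjusted p = 0.755). Its difference between the hairpins, -0.38, did not pass the test over all clusters (adjusted p = 0.558).

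H3C1, the called gene of the H3 family, had a like pattern. Its signal was 9.68, 9.70 and 9.71 on the shLSD1 #1 arrays and 10.03, 9.88 and 10.07 on the shLSD1 #2 arrays, against 10.08, 9.99 and 10.13 on the control arrays. The first group was wholly below control and the second overlapped it. The change was -0.37 ± 0.11 with shLSD1 #1 (adjusted p = 0.0418) and -0.07 ± 0.11 with shLSD1 #2 (adjusted p = 0.738).

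H2AC1 encodes an H2A of the male germ line. It was the member called higher with shLSD1 #1, at 5.58, 5.02 and 5.29, with 4.47, 4.97 and 4.79 on the shLSD1 #2 arrays and 4.44, 4.56 and 4.58 on the control arrays. All 9 values were below the negative controls, so no fold is given for the fitted change of 0.77 ± 0.17 (adjusted p = 0.0146). With shLSD1 #2 the change was 0.22 ± 0.17 (adjusted p = 0.495). When values under the negative controls were raised to them, the arrays' percentiles replaced all 9 values of H2AC1. The change with shLSD1 #1 was then -0.23, as was the median of all clusters, which says nothing of H2AC1 itself.

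**Figure D2:**
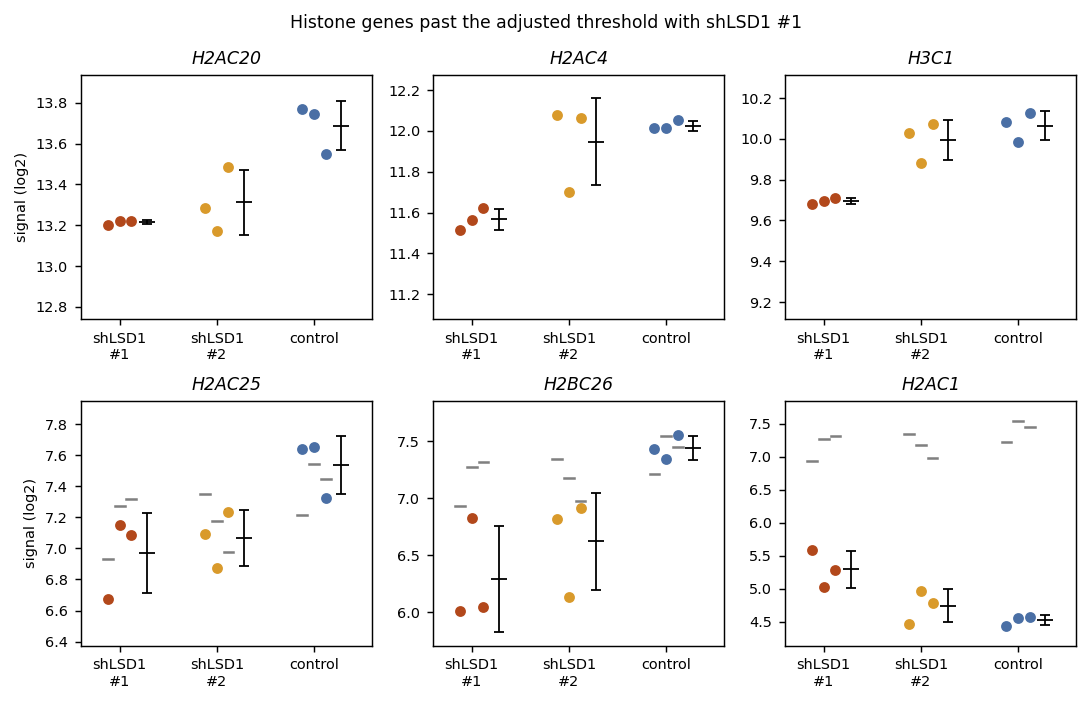
Log2 signal of the called histone genes on each array (points), by group, with group mean and SD (bars, n = 3) and each array's negative control percentile (grey ticks). H2BC26 and H2AC25 lie near the ticks and H2AC1 below them, while H2AC20, H2AC4 and H3C1 lie well above.

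The 6 calls did not hold in every setting. Each was lost in a fit with the arrays blocked by their high or low spike-in signal, described further on (adjusted p 0.572 to 0.877), and without shLSD1 #1 replicate 4 (adjusted p 0.0518 to 0.140). H2AC4 and H3C1 also lost theirs without any other single array of shLSD1 #1 or control, and H2AC20 without any of them but control replicate 3. H3C1 and H2AC25 lost theirs without shLSD1 #2 replicate 7 or 9 as well, and H2AC25 without shLSD1 #1 replicate 6 or control replicate 1 or 2. H2BC26 lost its call without shLSD1 #1 replicate 6 or control replicate 3, and H2AC1 without control replicate 1. With low values raised, H2BC26 (adjusted p = 0.135) and H3C1 (adjusted p = 0.0576) lost theirs, as did H2AC1, whose values were all replaced. With only shLSD1 #1 and control in the fit, H2AC25 (adjusted p = 0.0690) and H3C1 (adjusted p = 0.0663) did. In the fit blocked by spike-in signal, the shLSD1 #1 changes shrank to -0.42 for H2BC26, -0.28 for H2AC25 and -0.26 for H2AC20. There H3C1 had -0.20, H2AC4 -0.09 and H2AC1 0.43.

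Of the members that did not pass, H2BC13, H4C9 and H2BC17 are given for their adjusted p just above the threshold. H2BC13, an H2B gene, read 8.77, 9.35 and 8.92 with shLSD1 #1 and 9.12, 8.94 and 9.36 with shLSD1 #2, against 9.36, 9.80 and 9.74 in control. The groups did not overlap, though shLSD1 #2 replicate 9 and control replicate 1 were within rounding of each other. Its change was -0.62 ± 0.19 (adjusted p = 0.0540) with shLSD1 #1 and -0.50 ± 0.19 (adjusted p = 0.128) with shLSD1 #2. H4C9 had a change of -0.49 (adjusted p = 0.0577) with shLSD1 #1 and -0.08 with shLSD1 #2. H2BC17, above the negative controls on 3 arrays, had -0.56 (adjusted p = 0.125) with shLSD1 #1 and -0.75 (adjusted p = 0.0545) with shLSD1 #2. H3C10, of the H3 genes with the largest changes, had -0.39 with shLSD1 #1 (adjusted p = 0.152) and -0.07 with shLSD1 #2.

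By array order alone, 23 members had every shLSD1 #1 array below every control array (16.8% of all clusters) and 3 had every one above (18.2%). For shLSD1 #2 the counts were 9 below (15.3% of all clusters) and 5 above (16.8%). The share below with shLSD1 #1 exceeded the background, and the share above was under it. H4C8, an H4 gene known to give a polyadenylated message too, was above control on every array of both hairpins: 13.06, 13.00 and 13.04 with shLSD1 #1 and 13.02, 13.03 and 13.01 with shLSD1 #2, against 12.91, 12.90 and 12.81 in control. Its changes of 0.16 and 0.14 did not pass the test (adjusted p = 0.319 and 0.415).

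The linker histones H1-2, H1-3, H1-4 and H1-5, which bind DNA between nucleosomes, were measured on every array, and no H1 gene passed the test with either hairpin. H1-4 read 15.79, 15.72 and 15.74 with shLSD1 #1 and 15.93, 15.71 and 15.93 with shLSD1 #2, against 16.01, 16.02 and 15.93 in control. The shLSD1 #1 arrays were all lower, by a change of -0.24 (adjusted p = 0.182). H1-2 had 9.99, 10.40 and 9.75 with shLSD1 #1 and 10.45, 10.33 and 10.74 with shLSD1 #2, against 10.35, 10.35 and 10.38 in control. Here the hairpin arrays spread more widely than control, with replicate 5 the highest of its group and replicate 8 the lowest of its group. The changes were -0.21 and -0.05 for H1-3 and -0.15 and 0.14 for H1-5 with shLSD1 #1 and shLSD1 #2. The other H1 genes were below the negative controls on all arrays, with changes from -0.08 for H1-10 to 0.23 for H1-8 with shLSD1 #1 and from -0.09 for H1-8 to 0.71 for H1-6 with shLSD1 #2. H1-1 had a shLSD1 #2 change of 0.41 (adjusted p = 0.0526).

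That spread recurred across the family, and the arrays named next were picked out after their values were seen. Set against the mean of the control arrays, the median of the 47 measured members was -0.22, -0.05 and -0.25 on shLSD1 #1 replicates 4, 5 and 6, and -0.0022, -0.23 and 0.094 on shLSD1 #2 replicates 7, 8 and 9. Control replicates lay between -0.02 and 0.01. Over all 8566 clusters measured on every array the same medians ran from -0.03 to 0.04. Replicates 4, 6 and 8 were low, while the other array or arrays of the same hairpin lay nearer to control. shLSD1 #1 replicate 5 was the highest of its 3 arrays for 36 of 47 members (45.8% of all measured clusters), and shLSD1 #2 replicate 8 the lowest of its 3 for 43 of 47 (39.4%). H2BC12, H2BC14, H4C1 and H4C8 were the exceptions for replicate 8. Members share their array and much of their sequence, so these counts are no replicates.

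**Figure D3:**
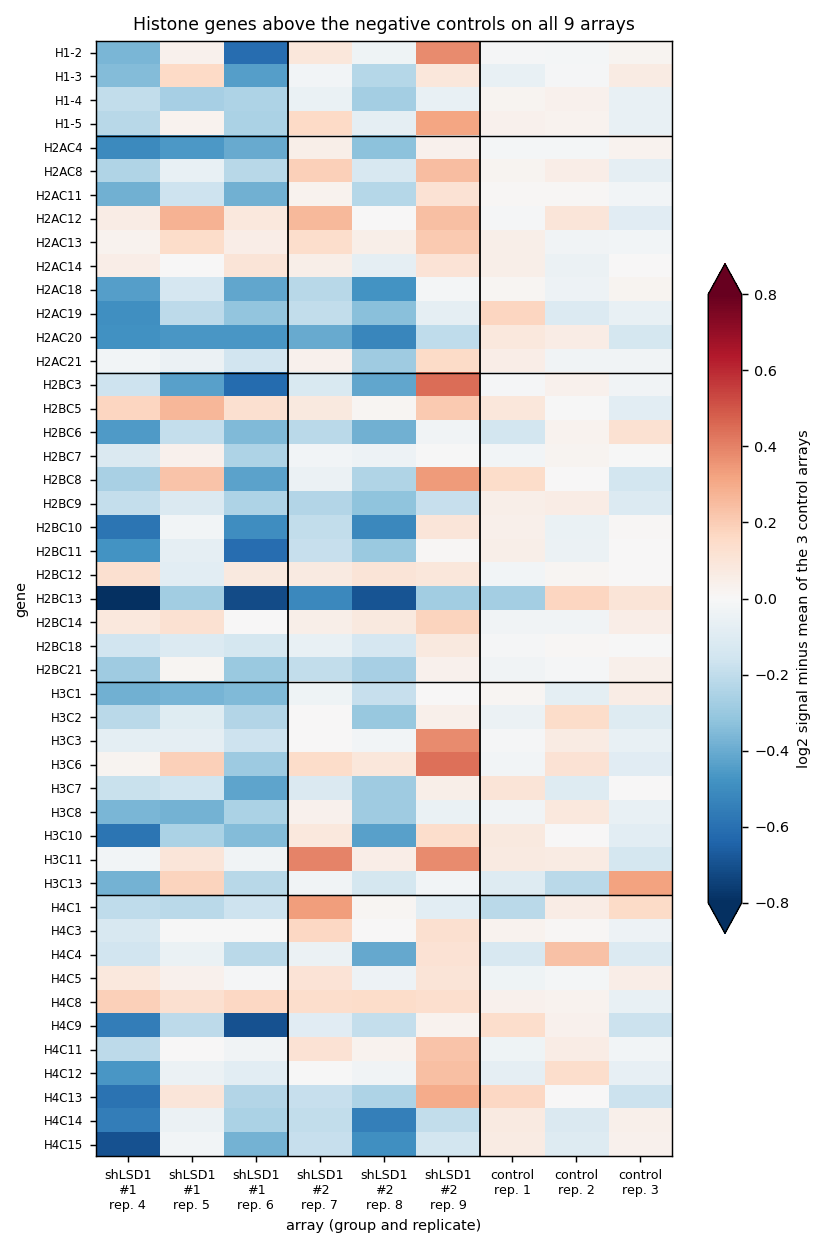
Log2 signal minus the control mean on each array (columns, by group and replicate) for the histone genes measured on all 9 arrays (rows, by family). The columns of shLSD1 #1 replicates 4 and 6 and of shLSD1 #2 replicate 8 are bluer than those of replicates 5, 7 and 9.

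Spike-ins for hybridization (bioB, bioC, bioD and cre), which are added to each sample and do not come from the cells, moved in part with this. Their mean log2 signal was 10.84, 10.84 and 10.80 on the shLSD1 #1 arrays and 11.33, 10.93 and 11.18 on the shLSD1 #2 arrays, against 11.38, 11.35 and 11.30 on the control arrays. The low arrays are the 3 of shLSD1 #1 and shLSD1 #2 replicate 8; of these, replicate 5 had no like drop of the histone median. Within the low class, the measured members differed by a median of 0.01 between shLSD1 #1 and shLSD1 #2 replicate 8. Of them, 20 of 47 were below 0, against 4305 of 8566 measured clusters. Within the high class, shLSD1 #2 replicates 7 and 9 differed from control by a median of 0.06. There 18 of 47 members were below 0, against 4094 of 8566 measured clusters. Between classes and within 1 hairpin, shLSD1 #2 replicate 8 differed from replicates 7 and 9 by a median of -0.22. Over all measured clusters that median was -0.02. Below 0 were 45 of 47 members, against 4738 of 8566 measured clusters. With the class as a block, 0 members passed with either hairpin, but calls over all clusters fell too, to 1.86% with shLSD1 #1 and 9.05% with shLSD1 #2, so the count is no result about histone genes. In that fit the median with shLSD1 #1 became 0.03, and 29 of 64 members were below 0. That block rests on the shLSD1 #2 arrays, since shLSD1 #1 lies wholly in one class and control in the other, so class and hairpin cannot be told apart for shLSD1 #1.

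**Figure D4:**
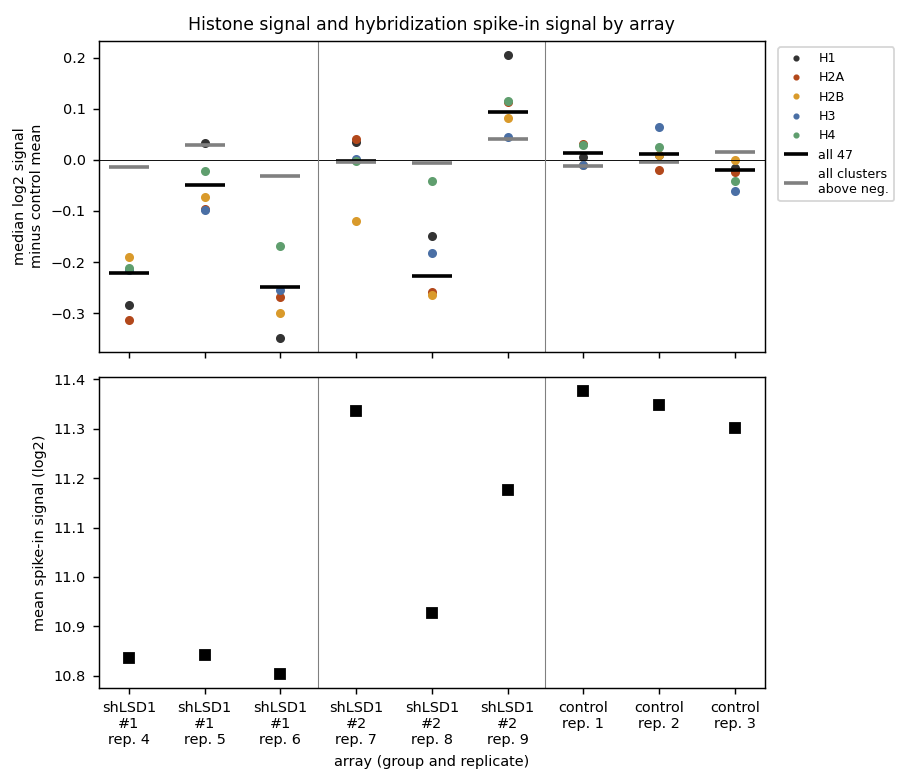
Upper panel: median log2 signal minus control mean of the measured histone genes on each array, by family (points) and for all 47 (black bars), with the median of all measured clusters (grey bars). Lower panel: mean log2 signal of the spike-ins on the same arrays; the histone median was -0.23 on shLSD1 #2 replicate 8, the shLSD1 #2 array of lowest spike-in signal.

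The hairpins were also set against each other. In the contrast shLSD1 #1 minus shLSD1 #2, 53 of 64 members were below 0, against 10680 of 21448 clusters. The median of the members was -0.12, beside a median of 0.00 over all clusters. limma called 0 members and 0% of all clusters, and the lowest adjusted p of a member was 0.480. At an unadjusted p under 0.05 there were 7 members, against 7.87% of all clusters: H1-1, H1-2, H2AC1, H2AC11, H2AC4, H3C1 and H4C9. A difference between the hairpins was therefore not detectable for any member.

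Position and sequence grouped some members. The chromosome 1 cluster from H2BC18 to H2AC21 holds 9 members, all measured on every array and all below 0 with both hairpins, with medians of -0.29 for shLSD1 #1 and -0.20 for shLSD1 #2. Of these, H2AC20 alone passed the test, with shLSD1 #1. Paralogues can share signal, as stated above, so the 9 are not separate counts. Without shLSD1 #2 replicate 8, the shLSD1 #2 median of the 9 was -0.12 and 7 were below 0, with H2AC21 at 0.09 and H2BC18 at 0.01. In the largest chromosome 6 cluster, from H2AC1 to H4C8, 23 of 32 members were measured, with medians of -0.18 and -0.03 and with 20 and 13 below 0. The 10 measured of 12 members from H2BC13 to H2BC17 had medians of -0.11 and 0.09. No test was made between clusters.

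H4C14 and H4C15 sit in the chromosome 1 cluster, and their promoter windows were identical in 300 of 300 bases. H4C14 read 12.01, 12.52 and 12.31 with shLSD1 #1 and 12.37, 12.02 and 12.37 with shLSD1 #2, against 12.64, 12.45 and 12.61 in control. H4C15 read 11.85, 12.53 and 12.17 with shLSD1 #1 and 12.36, 12.06 and 12.40 with shLSD1 #2, against 12.62, 12.45 and 12.58 in control. The genes had the same order of arrays within shLSD1 #1, replicate 5 highest and replicate 4 lowest, and were all below control with shLSD1 #2. Their changes were -0.29 and -0.37 with shLSD1 #1 and -0.31 and -0.27 with shLSD1 #2, and none passed the test.

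Likeness of profiles was measured as the root mean square difference over the 9 arrays, after each gene's mean was removed. Over 220 pairs of measured members of the same family the median was 0.19. H4C11 and H4C3 were closest at 0.057, followed by H2AC13 and H2AC14 and by H4C14 and H4C15, both at 0.067. This measure is also small where both genes hardly vary. The Pearson correlations of these pairs over the 9 arrays were 0.88, 0.51 and 0.97. H4C5 and H4C8, at 0.084, had a correlation of 0.24. H4C11 and H4C12 lie on opposite strands of chromosome 6; their windows were identical in 295 of 300 bases, and their profiles differed by 0.086. They are shown because so few bases separate them, and capitals mark those that differ.
H4C11, chr6:27823842-27824141, plus strand: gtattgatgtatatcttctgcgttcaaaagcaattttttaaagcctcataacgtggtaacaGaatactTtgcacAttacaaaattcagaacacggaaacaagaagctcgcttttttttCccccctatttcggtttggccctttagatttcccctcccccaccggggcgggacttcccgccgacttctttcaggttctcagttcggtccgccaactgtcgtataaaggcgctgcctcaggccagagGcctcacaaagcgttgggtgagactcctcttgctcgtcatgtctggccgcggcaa
H4C12, chr6:27831511-27831810, minus strand: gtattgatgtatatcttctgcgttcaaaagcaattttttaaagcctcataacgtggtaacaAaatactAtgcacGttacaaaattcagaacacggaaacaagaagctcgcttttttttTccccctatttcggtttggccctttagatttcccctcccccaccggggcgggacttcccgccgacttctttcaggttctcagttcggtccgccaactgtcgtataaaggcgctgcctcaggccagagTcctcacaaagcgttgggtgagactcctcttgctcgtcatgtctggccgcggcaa
H4C11 read 13.81, 14.02 and 13.99 with shLSD1 #1 and 14.13, 14.05 and 14.25 with shLSD1 #2, against 13.98, 14.08 and 13.998 in control. H4C12 read 9.26, 9.68 and 9.64 with shLSD1 #1 and 9.73, 9.70 and 9.97 with shLSD1 #2, against 9.66, 9.87 and 9.66 in control. Both were lowest on shLSD1 #1 replicate 4 and highest on shLSD1 #2 replicate 9, and neither passed the test.

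H2A and H2B genes often lie head to head with a shared promoter, and 8 such pairs had starts within 500 bases. Partners did not always move alike. H2AC14 and H2BC14 had shLSD1 #1 changes of 0.05 and 0.07, H2AC8 and H2BC8 of -0.17 and -0.15, and H2AC11 and H2BC11 of -0.31 and -0.39. H2AC13 and H2BC13, with starts 244 bases apart, had 0.08 and -0.62 with shLSD1 #1 and 0.13 and -0.50 with shLSD1 #2. H2AC20 had -0.47 and -0.38 where its partner H2BC21 had -0.19 and -0.14. The differences within pairs were not tested.

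Most replacement histones can be made outside S phase from polyadenylated messages and stand in for the members in chromatin. Of 21 symbols on the list, 13 had a cluster under that symbol. Of these, 1 rose and 2 fell with shLSD1 #1, while 1 rose and 0 fell with shLSD1 #2 (medians -0.18 and -0.05). For this list and those that follow, the shares over all clusters are 7.85% higher and 7.94% lower with shLSD1 #1. With shLSD1 #2 they are 6.56% higher and 6.63% lower. Measured clusters passed more often: of 8566, 1177 were higher and 1273 lower with shLSD1 #1, and 1010 and 1049 with shLSD1 #2. In this list 8 of 13 genes were measured on every array, then 18 of 20, 23 of 25 and 33 of 39 in the next lists. For these lists the measured clusters are the closer comparison. H2AZ2, a variant found at gene starts, rose with both. It read 13.50, 13.43 and 13.38 with shLSD1 #1 and 13.45, 13.56 and 13.53 with shLSD1 #2, against 12.81, 12.88 and 13.02 in control, without overlap. The changes were 0.53 (adjusted p = 0.00871) and 0.61 (adjusted p = 0.00499). H3-3B, which encodes H3.3, fell with shLSD1 #1 by 0.52 (adjusted p = 0.0396) and had a change of -0.46 with shLSD1 #2 (adjusted p = 0.0731). The call for H3-3B was lost without any single array other than shLSD1 #1 replicate 5. CENPA, the centromeric H3, fell with shLSD1 #1 by 0.45 (adjusted p = 0.0155), a call lost without control replicate 2, and changed by -0.24 with shLSD1 #2 (adjusted p = 0.181). H2AX and H2AZ1 passed the test with neither hairpin. H3-3A was not analysed here.

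Among 22 genes of histone mRNA transcription and processing, 20 had a cluster, and 1 rose and 3 fell with shLSD1 #1, while 1 rose and 2 fell with shLSD1 #2 (medians -0.12 and -0.04). SLBP, the stem-loop binding protein, had changes of 0.10 and 0.12, and NPAT, the histone gene activator, -0.0011 and -0.17; neither passed the test. CDK2, the kinase that acts on NPAT, read 12.60, 12.54 and 12.24 with shLSD1 #1 and 12.76, 12.72 and 12.77 with shLSD1 #2, against 13.16, 13.25 and 13.26 in control. It fell with both, by 0.76 (adjusted p = 0.00252) and 0.47 (adjusted p = 0.0302). E2F1, a transcription factor of S-phase entry, rose with both, by 0.80 (adjusted p = 0.0230) and 0.87 (adjusted p = 0.0179). CPSF2, a subunit of the complex that cuts histone messages, fell with shLSD1 #1 by 0.61 (adjusted p = 0.00523), and SYMPK, its scaffold, fell with shLSD1 #2 by 0.40 (adjusted p = 0.0458). LSM10, part of the particle that processes histone messages, was the other gene to fall with shLSD1 #1, by 0.49 (adjusted p = 0.0224). The shLSD1 #2 call for CDK2 was lost without any single array of shLSD1 #2 or control, and that for SYMPK without any single array of the 9. E2F1 lost its call with shLSD1 #1 without control replicate 1 or 3, and its call with shLSD1 #2 without shLSD1 #2 replicate 8 or 9 or control replicate 1.

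Chaperones and importers carry new histone protein to the nucleus and onto DNA. Of 26, 25 had a cluster, and 5 rose and 1 fell with each hairpin (medians 0.19 and 0.13). CHAF1A, the large subunit of the factor that deposits histones at replication forks, read 8.79, 9.03 and 8.54 with shLSD1 #1 and 8.50, 8.55 and 8.88 with shLSD1 #2, against 7.80, 7.22 and 7.91 in control. It rose by 1.14 (adjusted p = 0.00480) and 1.00 (adjusted p = 0.0107). HAT1, which acetylates new H4, rose by 0.87 (adjusted p = 0.000958) and 0.70 (adjusted p = 0.00347), MCM2 by 0.68 and 0.63, RBBP4 by 0.57 and 0.72, and RBBP7 by 0.48 and 0.42. The RBBP4 call with shLSD1 #1 was lost without any single array of control and without replicate 4, 5 or 7, and its call with shLSD1 #2 without control replicate 1. ASF1A, a chaperone of H3 and H4, was the gene that fell, by 0.59 and 0.61. ASF1B had changes of 0.24 and 0.08 and passed with neither.

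Of 40 S-phase genes, 39 had a cluster. With shLSD1 #1, 11 rose and 0 fell, and with shLSD1 #2, 10 rose and 0 fell (median 0.19 with each). E2F1, CCNE1 and CCNE2 were also on the list of histone mRNA transcription and processing, and MCM2 on that of chaperones. E2F1 and MCM2 are therefore counted as risers in both of their lists. PRIM1, a primase subunit, rose by 1.22 (adjusted p = 0.000170) and 1.29 (adjusted p = 0.000127). PCNA, the sliding clamp of DNA polymerase, read 14.01, 13.91 and 13.84 with shLSD1 #1 and 13.57, 13.89 and 13.85 with shLSD1 #2, against 13.15, 12.96 and 13.13 in control. It rose by 0.84 (adjusted p = 0.00176) and 0.69 (adjusted p = 0.00551), and MCM4, of the replicative helicase, by 0.76 and 0.79. In the fit blocked by spike-in signal, the shLSD1 #1 calls for H2AZ2, H3-3B, CENPA, E2F1, CDK2, CPSF2, CHAF1A, HAT1, MCM2, RBBP4, PCNA and MCM4 were lost, as were the shLSD1 #2 calls for E2F1, CDK2 and SYMPK, while PRIM1 kept both. In that fit some of these shLSD1 #1 changes were larger: CHAF1A had 1.28, MCM4 0.96, E2F1 0.87, RBBP4 0.72 and CENPA -0.56. Others were smaller: CDK2 had -0.71, HAT1 0.67, PCNA 0.66, CPSF2 -0.59, MCM2 0.57, H2AZ2 0.47 and H3-3B -0.37. When arrays of low spike-in signal were left out, the shLSD1 #2 calls for H2AZ2 (0.59, adjusted p = 0.0536), CHAF1A (1.05, adjusted p = 0.0631), PCNA (0.63, adjusted p = 0.0602), CDK2 and SYMPK were lost. The share of cells in S phase was not measured here, and its part in the histone values was not tested. Of 8 members known to give polyadenylated messages, 0 passed with either hairpin, against 15.8% and 13.2% of all clusters, with medians of -0.13 and 0.04; at 8 genes these counts do not set them apart.

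**Figure D5:**
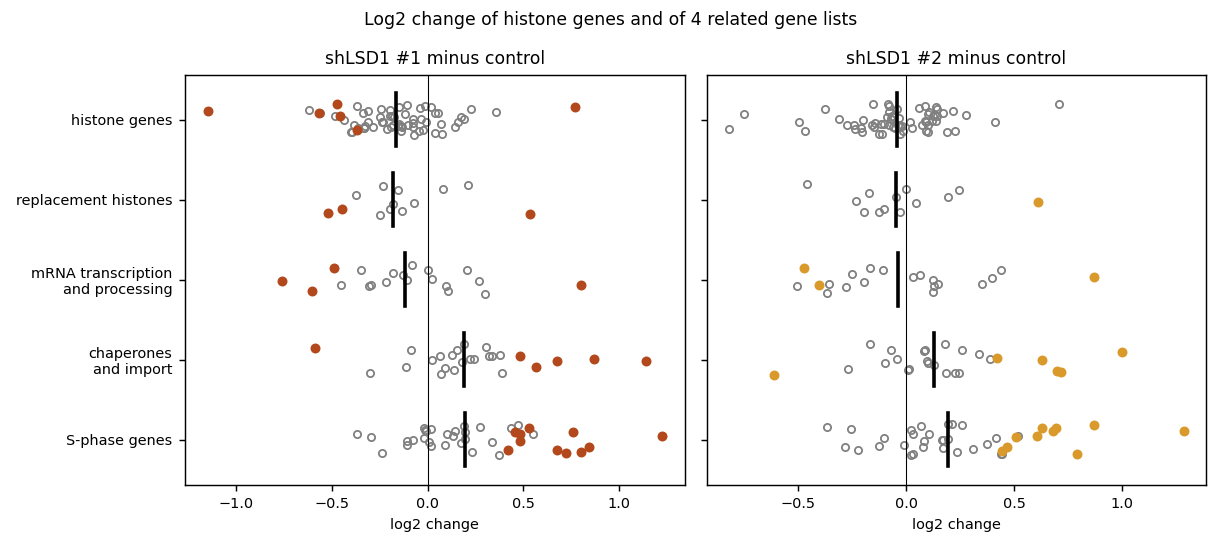
Log2 change of each gene (points, filled where past the threshold) and median (black bars) for the histone members and 4 related lists, with shLSD1 #1 left and shLSD1 #2 right. The histone members lie around a median of -0.16 and -0.04, and the S-phase genes around 0.19 and 0.19.

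The label of the cells was set against their markers. Of 12 mesothelial markers, MSLN and KRT7 were above the negative controls on all arrays, 4 on some, and CALB2, KRT5, UPK1B, LRRN4, THBD and BNC1 on none. Of 9 markers of blood, endothelial and epithelial cells, 8 were below them on every array. CD68, a lysosomal protein of macrophages that other cells also make, was above them on all 9 arrays and fell with both hairpins, by 1.11 with shLSD1 #1 and 1.35 with shLSD1 #2. Of the mesothelial markers, 3 rose and 1 fell with each hairpin. MSLN, the surface protein mesothelin, fell (-0.85 and -0.95), and WT1, UPK3B and UPK1B rose, with fitted changes from 0.75 to 1.34; UPK1B was below the negative controls on all 9 arrays. WT1 and UPK3B were below them on all control arrays, so that WT1 was at least 1.35-fold and 1.27-fold higher and UPK3B at least 1.14-fold and 1.15-fold higher. The part of these shifts in the histone values was not tested.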

How the data were processed

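Total RNA of 9 ACC-MESO-1 samples, 3 per group, was labelled with a whole-transcript kit, per the labels' protocols. The deposited values are log2 signals that the authors summarised by RMA in Affymetrix Expression Console 1.4, per the submitters' processing notes, with base 2 assumed because RMA writes it. The 2903 control probe sets were set aside and the other 21448 transcript clusters were tested with no filter, with limma 3.58.1 in R 4.3.3 (lmFit and eBayes, prior without trend, Benjamini-Hochberg). Symbols came from the array's annotation, and all 64 members matched RefSeq by gene ID. Simulated data with 200 changed clusters were used to test the fit. Where a whole group lay below the negative controls, a fold was taken against their percentile on that group's arrays. For H2BC26 and H2AC25 it is no bound.

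Members, lists and alternatives were chosen with earlier results of these data known. Named genes were all called members, the 2 members per family with the largest mean change, every H1 gene, up to 4 called genes per list, and SLBP, NPAT, H2AX, H2AZ1, H3-3A, H3-3B, CENPA, CHAF1A, ASF1B and PCNA; H2BC13, H2BC17, H4C8, H4C9, H4C11, H4C12, LSM10, RBBP7, ASF1A and the divergent pairs were added after their values were seen. Alternatives were further normalizations, priors, filters and weights, the spike-in class and omission of each array. The number of arrays limits the precision. Plots were drawn with matplotlib 3.10.9.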

Additional observations from a re-analysis of the deposited data

How the results depend on the processing

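Counts of members past the threshold moved with the setting, and the cause was not tested except where the setting itself tests fewer genes or samples. Lower members with shLSD1 #1, 5 as deposited, were 8 without the third of clusters of lowest mean, 13 with a trended robust prior and 0 in the fit blocked by spike-in signal, and 0 to 5 without single arrays. Higher members with shLSD1 #1 were 0 with that block, 0 when values under the negative controls were raised to them, and 0 to 1 without single arrays. Lower members with shLSD1 #2, 0 as deposited, were 1 with a second quantile normalization, 1 with cyclic loess, 3 without the lowest clusters, 4 with the trended prior, 2 with array weights, 1 with raised low values, and 0 to 1 without single arrays. Higher members with shLSD1 #2 were 1 without the lowest clusters, 1 with the trended prior, 1 with array weights, and 0 to 1 without single arrays. Members called the same way with both hairpins were 2 without the lowest clusters, 2 with the trended prior, 1 with array weights, 1 with raised low values, and 0 to 1 without single arrays. The median with shLSD1 #1 was 0.028 with the block and -0.23 to -0.13 without single arrays, and that with shLSD1 #2 was -0.10 to 0.05. Replacement histones called were 1 with the block and 1 to 3 without single arrays, and genes of histone mRNA transcription and processing 0 and 2 to 6. H2AC1 with shLSD1 #1 turned to -0.23 with raised low values. Scaling by array medians moved no count beyond 1.5 times. Calls over all clusters moved alongside. With shLSD1 #1 they numbered 3385 as deposited, 4114 without the lowest clusters, 4481 with the trended prior and 399 with the block. With shLSD1 #2 they numbered 2827 as deposited, 3452 without the lowest clusters, 3829 with the trended prior and 3099 with array weights. Signals below the negative controls in at least 1 whole group limit 13 members to a fold against the percentile or to no fold. No paired analysis was made, because the replicate numbers run on across the groups and the labels do not state whether arrays of different groups belong together.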
